A study of Mus musculus with 8 samples.

Results

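The 57 genes described here encode proteins that carry a cell through G2 and mitosis. They were taken by symbol from a fixed list and read from microarrays of LT-HSC, the long-term haematopoietic stem cells of mouse bone marrow that sustain blood formation over a lifetime. Of the 57 listed genes, 56 were measured, each by 1 probe set, out of 29915 genes with a named probe set. Ccnb1 was not analysed here because no probe set carried its symbol alone. The mean of each of the 56 genes over the arrays lay above the median of all tested probe sets, the lowest of them at percentile 63.8.

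The study used 4 groups of 2 arrays. All mice received diphtheria toxin: in CD169DTR/+ mice, heterozygous for a diphtheria toxin receptor allele under the CD169 gene, it depletes CD169+ macrophages, and wild-type (WT) mice received it as the control. Then 72 h later the mice were given a sham exposure or 2 Gy of total body irradiation, and LT-HSC were sorted from bone marrow on day 5 as Lin- cKit+ Sca+ Flk2- CD48- CD150+ cells. The groups are called WT non-irradiated, WT 2 Gy, CD169DTR/+ non-irradiated and CD169DTR/+ 2 Gy. The replicates of a group came from separate experiments, and the labels used here give neither the ages of the mice nor whether animals were pooled. Values are log2 expression values normalised with RMA (robust multi-array averaging), so a difference of 1 stands for a 2-fold difference.

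Mitosis genes are transcribed late in the cell cycle. In resting cells the DREAM complex, which joins the MuvB core to the pocket protein p130 and E2F4, keeps them silent; in cycling cells MuvB binds B-MYB and FOXM1 instead and activates them. MuvB reads the cell cycle genes homology region (CHR), and the trimer NF-Y reads the CCAAT boxes that often lie nearby. After DNA damage, p53 raises the CDK inhibitor p21, encoded by Cdkn1a, which returns MuvB to the repressive form. LT-HSC are mostly quiescent, so in a sorted population these transcripts are known mainly as a mark of the fraction that divides.

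The promoters of 4 of the genes are shown because each holds a CHR, and because the arrays read the output of these promoters. They are RefSeq windows of build GRCm38.p6, from 250 bases before to 50 bases after the start site, written along the gene's strand. Capitals mark the CHR, searched as TTTGAA and TTCGAA on both strands (TTCAAA is the reverse of the former), and the CCAAT box, searched on both strands (ATTGG in reverse). Mki67 lies at chr7:135716330-135716629 on the minus strand, Top2a at chr11:99024140-99024439 on the minus strand, Cdk1 at chr10:69352863-69353162 on the minus strand, and Plk1 at chr7:122159185-122159484 on the plus strand.
Mki67: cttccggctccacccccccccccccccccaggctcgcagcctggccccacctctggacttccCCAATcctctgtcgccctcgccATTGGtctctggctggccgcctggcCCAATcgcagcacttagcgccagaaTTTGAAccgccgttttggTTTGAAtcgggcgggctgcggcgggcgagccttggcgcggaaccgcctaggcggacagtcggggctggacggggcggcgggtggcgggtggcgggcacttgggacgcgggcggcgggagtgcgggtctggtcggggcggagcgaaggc
Top2a: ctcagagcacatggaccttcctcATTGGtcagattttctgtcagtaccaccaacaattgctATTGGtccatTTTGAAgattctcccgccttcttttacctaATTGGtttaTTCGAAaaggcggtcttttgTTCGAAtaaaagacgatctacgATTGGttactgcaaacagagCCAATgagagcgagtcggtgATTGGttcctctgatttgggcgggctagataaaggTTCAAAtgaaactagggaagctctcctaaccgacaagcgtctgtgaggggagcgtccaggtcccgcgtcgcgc
Cdk1: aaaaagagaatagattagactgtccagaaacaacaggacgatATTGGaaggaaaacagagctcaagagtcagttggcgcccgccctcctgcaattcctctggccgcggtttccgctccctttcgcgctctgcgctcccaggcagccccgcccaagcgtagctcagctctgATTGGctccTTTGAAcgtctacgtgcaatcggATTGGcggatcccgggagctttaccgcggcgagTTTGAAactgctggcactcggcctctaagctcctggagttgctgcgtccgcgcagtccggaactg
Plk1: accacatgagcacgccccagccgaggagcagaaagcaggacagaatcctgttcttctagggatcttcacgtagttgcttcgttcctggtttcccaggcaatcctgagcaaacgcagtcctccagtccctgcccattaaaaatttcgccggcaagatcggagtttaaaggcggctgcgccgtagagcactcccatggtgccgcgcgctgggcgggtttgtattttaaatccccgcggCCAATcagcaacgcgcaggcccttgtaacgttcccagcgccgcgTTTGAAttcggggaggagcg
The Mki67 window holds 2 CHR matches and 3 CCAAT boxes. The Top2a window holds 4 and 6, the Cdk1 window 2 and 3, and the Plk1 window 1 and 1.

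A CHR was found in 36 of the 48 listed genes with a RefSeq promoter window (75%), against 5854 of 27025 genes in all (21.7%). A CCAAT box was found in 35 of the 48 (72.9%), against 41.1% of all genes, and both motifs in 31 of the 48 (64.6%), against 8.61%. Counted once per gene and position where windows of a gene overlap, these windows held 49 CHR matches, and 35 of them lay between 100 bases before and 50 bases after a start site of the gene. Among other mitotic genes outside the list a CHR was found in 30 of 46 (65.2%), among DNA replication genes in 6 of 29 (20.7%), and among genes that restrain mitotic entry in 0 of 14. These are matches of letters and not measured sites of binding.

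The 8 arrays had medians between 4.86 and 5.03, and arrays of a group correlated at 0.991 to 0.994 over the tested probe sets. Some arrays correlated more closely with an array of another group, at 0.992 to 0.994, than with their own replicate, at 0.991. These were WT 2 Gy replicate 2, both CD169DTR/+ non-irradiated arrays and CD169DTR/+ 2 Gy replicate 1. On the leading principal component 2 irradiated arrays stood apart, CD169DTR/+ 2 Gy replicate 2 at 40.3 and WT 2 Gy replicate 1 at 29.5. Medians over the 56 genes, Cdkn1a and sign changes of the genes followed singly are also given without 1 or both of them. Differences of the other genes and of the role lists are given with all 8 arrays only. The identity of the cells was checked on their markers. Kit, the receptor used in the gate, was at 14.25 to 14.93, and Slamf1, which encodes CD150, was at 10.66 to 12.38. The lymphoid genes Cd3e (3.62 to 4.03), Cd4 (4.4 to 4.89), Cd8a (3.72 to 4.17) and Ms4a1 (3.78 to 4.15) were under each array's own median. So were Il7r, Rag2, Ebf1, Pax5, Igll1 and Ncr1, while Dntt and Cd79a were each above it in a single array. The lymphoid markers Nkg7 (13.51 to 15.05), Cd79b (9.07 to 9.68) and Vpreb1 (5.30 to 6.10) were above every array's median. Other genes whose proteins such a gate leaves out were not low: Cd48 was at 10.98 to 13.47, Flt3, which encodes Flk2, at 5.85 to 8.22, and Itgam, a myeloid integrin, at 5.22 to 6.01, all above every array's median. In WT cells both irradiated arrays were above both controls in Cd48 and below them in Flt3, and in CD169DTR/+ cells the same held. Ly6g, a neutrophil gene, was near the medians at 4.85 to 5.80, and Ptprc, which blood cells in general express, was at 10.10 to 10.80. Siglec1, which encodes CD169, was at 3.86 to 4.12 in these sorted cells.

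Across the 8 arrays the mitotic genes differed between arrays of a group as well as between groups. The median over the 56 genes of the log2 value minus the gene's own mean was -0.29 and -0.14 in the WT non-irradiated arrays, -0.25 and 0.18 in the WT 2 Gy arrays, -0.08 and 0.01 in the CD169DTR/+ non-irradiated arrays, and 0.34 and 0.29 in the CD169DTR/+ 2 Gy arrays, in the order of replicates 1 and 2. Both CD169DTR/+ 2 Gy arrays were thus above the other 6, and WT 2 Gy replicate 1 was level with the non-irradiated WT arrays. The highest array was a CD169DTR/+ 2 Gy array for 40 of the 56 genes, WT 2 Gy replicate 2 for 12, and a WT non-irradiated array for 0. The lowest was WT 2 Gy replicate 1 or WT non-irradiated replicate 1 for 39. How often each array was the highest or lowest over all tested probe sets was not counted, so these counts have no share beside them. The median deviation over all tested probe sets ran from -0.04 in WT non-irradiated replicate 1 to 0.05 in WT 2 Gy replicate 1. From lowest to highest array the genes spanned 0.41 (Pttg1, the securin that holds separase inactive) to 2.23 (Ect2), with a median span of 1.06.

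**Figure D1:**
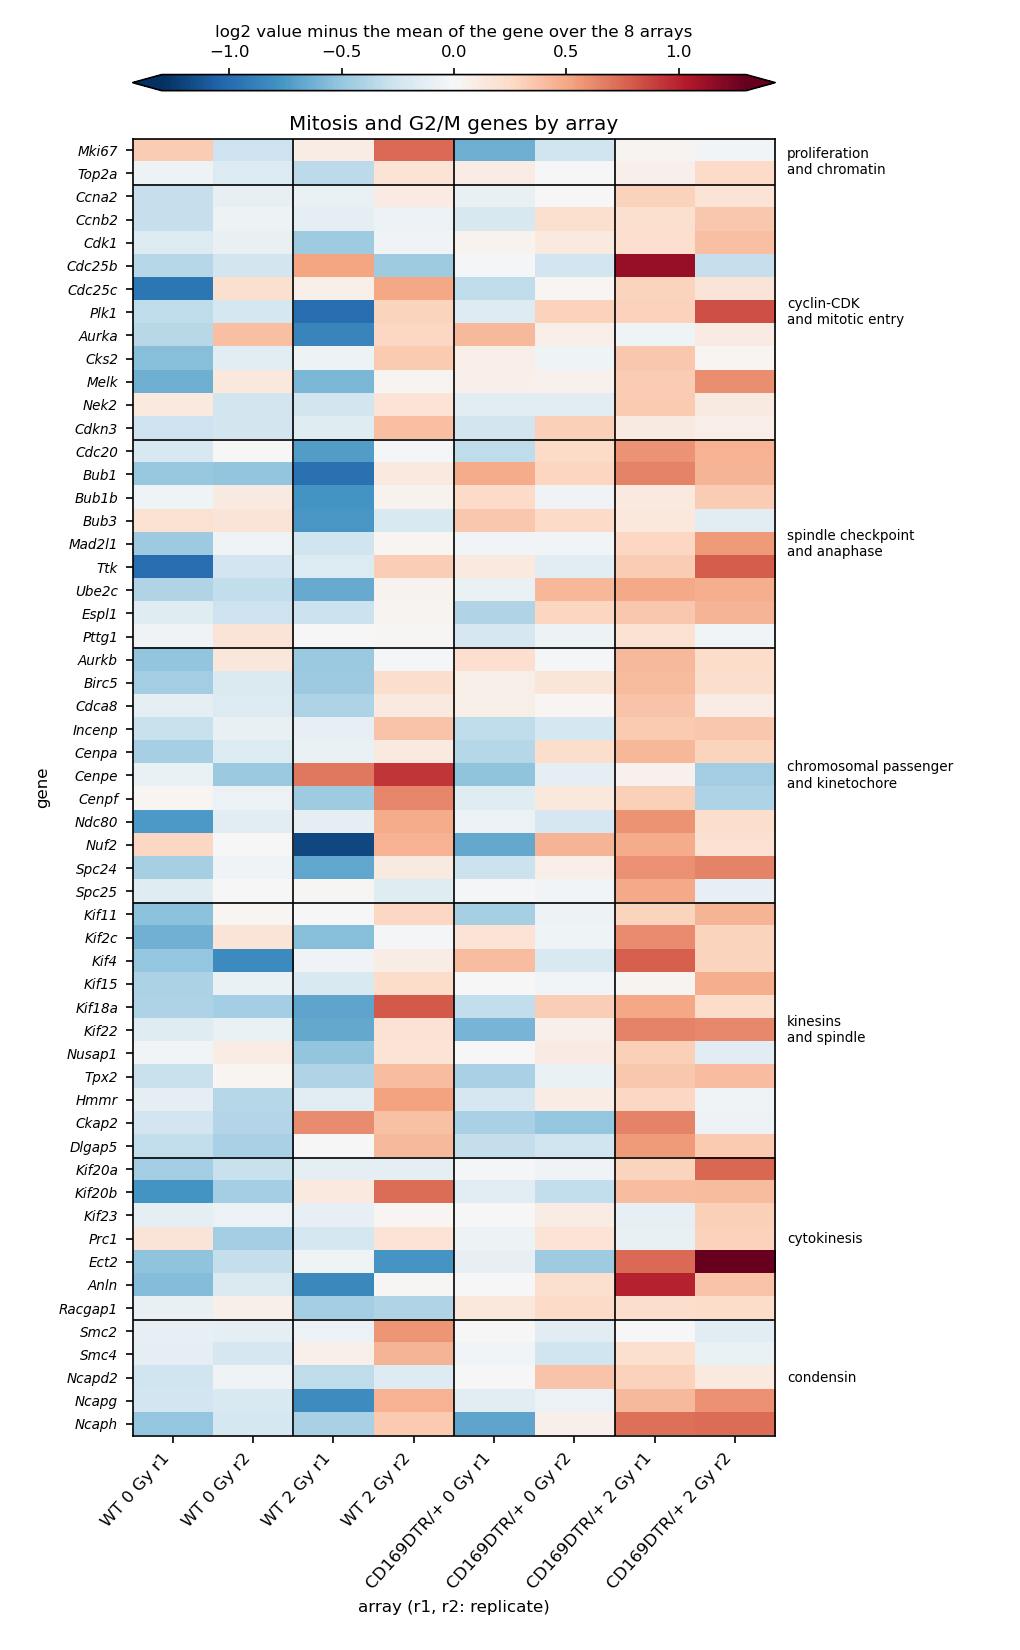
Heat map of the 56 measured mitosis and G2/M genes (rows, grouped by role) over the 8 arrays (columns, r1 and r2 are the replicates, 0 Gy marks non-irradiated arrays); the colour is the log2 value minus the mean of that gene over the 8 arrays. Red fills the CD169DTR/+ 2 Gy columns and WT 2 Gy r2, while WT 2 Gy r1 is mostly blue.

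The replicates of the WT 2 Gy group differed most. In that group 52 of the 56 genes were higher in replicate 2 than in replicate 1, by a median of 0.505, while 43.5% of all tested probe sets were. The median size of the replicate difference there was 0.53 for the mitotic genes and 0.18 for all probe sets. In the WT non-irradiated group 38 of the 56 were higher in replicate 2 (median 0.155), in the CD169DTR/+ non-irradiated group 32 (median 0.09), and in the CD169DTR/+ 2 Gy group 23 (median -0.12). Over all probe sets 49.9%, 41.2% and 52.4% were higher in replicate 2 in the same order of groups. The median size of the replicate difference there was 0.21, 0.24 and 0.215 for the mitotic genes. For all probe sets it was 0.15, 0.19 and 0.20. Set against the controls of its own genotype, WT 2 Gy replicate 1 had 17 of the 56 genes above both control arrays and 23 below both. WT 2 Gy replicate 2 had 42 above and 4 below, CD169DTR/+ 2 Gy replicate 1 had 44 and 4, and CD169DTR/+ 2 Gy replicate 2 had 38 and 6. For all probe sets the shares above both controls were 50.8%, 45%, 33.1% and 39.5% in the same order. The shares below both were 25.3%, 25.8%, 27.8% and 28.6%.

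Marker lists of other cells moved between these arrays too. In WT 2 Gy replicate 1, 11 of 12 measured megakaryocyte genes (of 14 listed) were above their own mean. Over all tested probe sets 18081 of 30294 were above theirs in that array. The mean level of the megakaryocyte list was 8.81 to 10.02 in WT 2 Gy, 8.73 to 8.83 in WT non-irradiated, 8.46 to 8.75 in CD169DTR/+ non-irradiated and 8.93 to 9.39 in CD169DTR/+ 2 Gy arrays. For the 17 neutrophil and granulocyte-monocyte progenitor genes the mean level was 7.11 to 7.93 in WT non-irradiated, 8.43 to 8.92 in WT 2 Gy, 8.03 to 8.71 in CD169DTR/+ non-irradiated and 7.81 to 8.31 in CD169DTR/+ 2 Gy arrays. Within WT 2 Gy the higher level was that of replicate 2, where the mitotic genes were higher too. The median deviation of this list was 0.06 in WT 2 Gy replicate 1 and 0.60 in replicate 2. The 9 measured LT-HSC genes (of 10 listed) had a median deviation of 0.30 in WT 2 Gy replicate 1 and -0.29 in CD169DTR/+ 2 Gy replicate 2. For the 10 mast cell, basophil and eosinophil genes the mean level was 6.88 to 7.78 in WT non-irradiated, 7.24 to 7.62 in WT 2 Gy, 6.49 to 6.94 in CD169DTR/+ non-irradiated and 7.68 to 7.96 in CD169DTR/+ 2 Gy arrays, so in CD169DTR/+ cells both irradiated arrays were above their controls. For the 10 measured erythroid genes (of 15 listed) the mean level was 7.93 to 8.16, 7.29 to 7.84, 7.39 to 8.88 and 6.8 to 7.48 in the same order. By this mean the list was lower at 2 Gy in WT cells and overlapping in CD169DTR/+ cells. By the median deviation it overlapped in WT cells too, at 0.065 and 0.038 without irradiation and -0.222 and 0.094 after 2 Gy. For the 11 measured monocyte and macrophage genes (of 12 listed) the mean level was 6.51 to 6.59, 6.79 to 6.96, 6.35 to 6.68 and 6.56 to 6.61 in the same order. Both WT 2 Gy arrays were thus above all other arrays in this list. The part of other cells in the levels of the mitotic genes was not tested, and in bulk RNA more dividing cells and more RNA per dividing cell cannot be told apart.

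**Figure D2:**
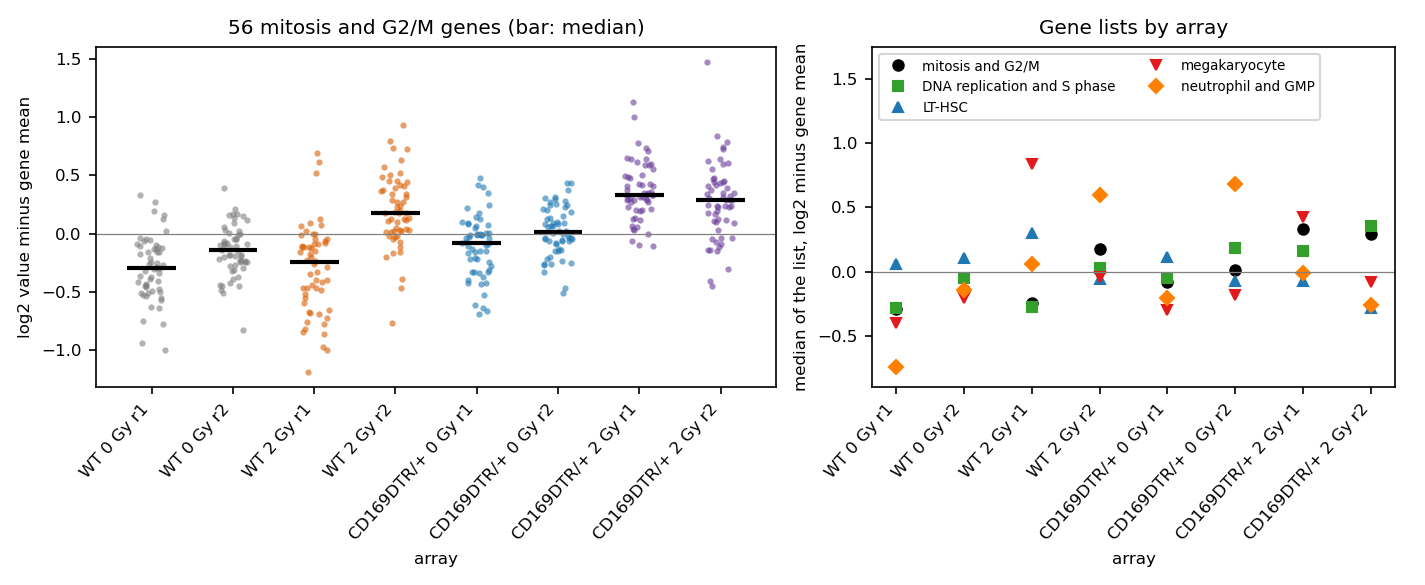
Left, log2 value minus the gene's own mean (vertical axis) in each array (horizontal axis), with a point per mitotic gene and a bar at the median; right, the median of the mitotic genes and of 4 other lists in each array, on the same scale (GMP: granulocyte-monocyte progenitor). The mitotic genes stand at -0.25 in WT 2 Gy replicate 1 and 0.18 in replicate 2, while the megakaryocyte genes stand at 0.84 and -0.04.

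The comparison of irradiated with non-irradiated WT cells asks what 2 Gy left in LT-HSC on day 5. Kif20b, a kinesin of cytokinesis, Cenpe, the kinetochore motor that aligns chromosomes, and Ckap2, a spindle protein, were the furthest above the controls, at 2.05-fold (95% confidence interval 1.42 to 2.96), 2.14-fold (1.43 to 3.18) and 1.76-fold (1.19 to 2.61). Bub3, a spindle checkpoint protein, was lower by a log2 difference of -0.66. Of the 56 genes 0 passed an adjusted p of 0.05 with limma, where 0.0099% of all tested probe sets did, and their smallest adjusted p was 0.418. At an unadjusted p under 0.05, 5 genes were higher (Dlgap5, Kif4, Ckap2, Kif20b and Cenpe) and 2 were lower (Bub3 and Racgap1), where 4.6% of all probe sets were higher and 3.21% lower. Both irradiated arrays lay above both controls for 14 of the 56 and below them for 2, and the shares over all probe sets were 31.4% and 13.2%.

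By sign, 39 of the 56 genes were higher at 2 Gy in WT cells and 17 lower, with a median log2 difference of 0.10, and 64.2% of all probe sets were higher, with a median of 0.075. Centring each array on its median moved the median of all probe sets by 0.115. Then 26 of the 56 were above 0, with a median of -0.015. Centring shifts all probe sets of an array alike, so the median of the genes stayed 0.025 above that of all probe sets by construction. This gap was 0.129 with cyclic loess normalisation and 0.07 with dim probe sets left out. Without WT 2 Gy replicate 1 the median was 0.37 with 49 genes above 0, and without replicate 2 it was -0.07 with 25. Without WT non-irradiated replicate 2 it was 0.23 with 43.

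In CD169DTR/+ cells the same exposure went with higher levels of most of the list. Ect2, the exchange factor that switches on RhoA for the cleavage furrow, was 2.61-fold higher (1.53 to 4.46), Ncaph, a condensin I subunit, 2.04-fold (1.20 to 3.48), Kif22, a chromosome-arm kinesin, 1.87-fold (1.10 to 3.18), and Ckap2 1.68-fold (1.13 to 2.49). Of the 56 genes 52 were higher and 4 lower (Bub3, Aurka, Cenpf and Smc2), with a median of 0.37, where 56.6% of all probe sets were higher with a median of 0.035. With limma 0 genes passed an adjusted p of 0.05, as did 0% of all probe sets, and the smallest adjusted p was 0.544. At an unadjusted p under 0.05, 10 were higher and 0 lower, where 3.24% and 3.53% of all probe sets were. The groups did not overlap for 32 higher genes and 1 lower gene (Bub3), against 17.8% and 13.4% of all probe sets. Leaving out each array in turn kept the median between 0.26 and 0.39.

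**Figure D3:**
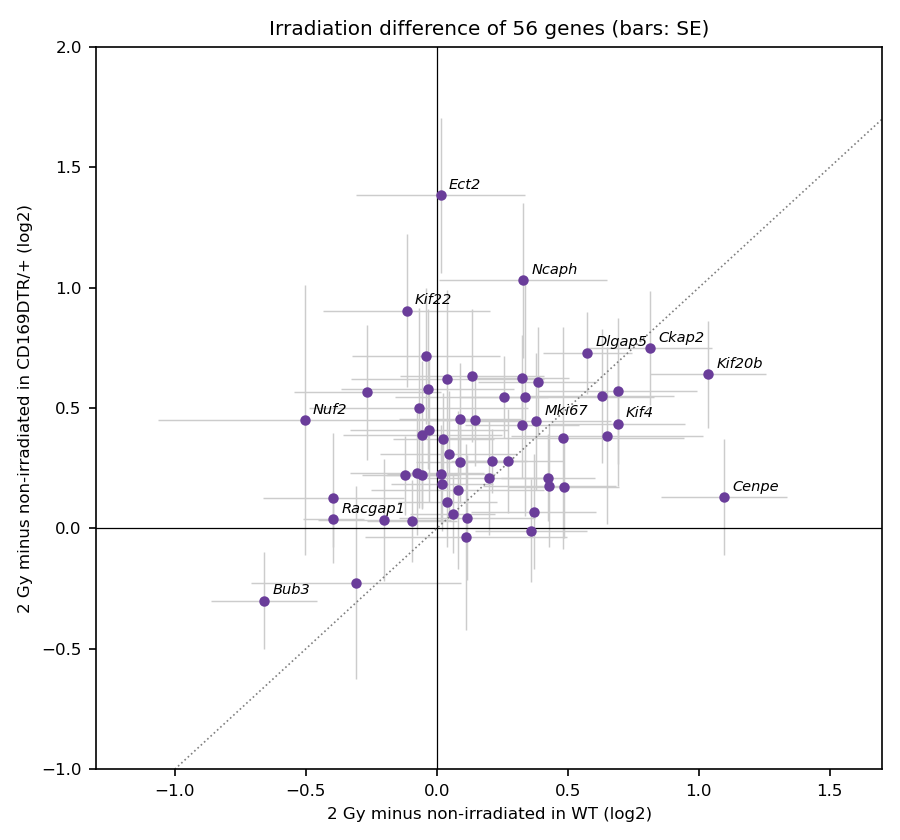
Log2 difference of 2 Gy minus non-irradiated arrays in WT cells (horizontal axis) and in CD169DTR/+ cells (vertical axis), with a point per mitotic gene, grey bars of 1 SE and a dotted line where both differences are equal. 37 genes were above 0 on both axes, 15 only on the vertical axis, 2 only on the horizontal axis and 2 on neither.

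Over both genotypes, the average irradiation difference had 49 genes above 0 and 7 below, with a median of 0.26, where 63.7% of all probe sets were above 0 and their median was 0.055. With limma 0 genes passed an adjusted p of 0.05, where 0.0099% of all probe sets did, and the smallest adjusted p was 0.291. At an unadjusted p under 0.05, 15 genes were higher and 1 was lower, where 5.24% and 3.98% of all probe sets were. In 3 genes, Dlgap5, Kif20b and Ckap2, all 4 irradiated arrays lay above all 4 controls, and in 1, Bub3, below them, against 3.76% and 1.74% of all probe sets. Dropping WT 2 Gy replicate 1 gave a median of 0.38, and dropping replicate 2 gave 0.115.

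Among the genes of proliferation and chromatin, Mki67, which encodes the Ki-67 protein that coats mitotic chromosomes, was at 15.23 and 14.63 (WT non-irradiated), 14.99 and 15.63 (WT 2 Gy), 14.26 and 14.64 (CD169DTR/+ non-irradiated) and 14.93 and 14.86 (CD169DTR/+ 2 Gy). Its groups overlapped in WT cells, and its highest array was WT 2 Gy replicate 2. Unlike most of the list it was lower in CD169DTR/+ than in WT cells, by a log2 difference of -0.48 without irradiation and -0.415 after 2 Gy (SE 0.28; limma adjusted p 0.999 and 0.781). Top2a, the topoisomerase that untangles sister chromatids, was at 13.17 and 13.05, 12.89 and 13.41, 13.33 and 13.23, and 13.30 and 13.48 in the same order of groups. Its differences stayed between 0.04 and 0.24, and its promoter window, shown above, has the most CHR matches of the 4.

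For the cyclin-dependent kinase machinery of mitotic entry, 11 genes were measured. In WT cells 7 of the 11 were higher at 2 Gy (median 0.09), where 64.2% of all probe sets were. In CD169DTR/+ cells 10 of 11 were higher (median 0.28), where 56.6% of all probe sets were. In either comparison 0 of the 11 had an unadjusted limma p under 0.05. Over all probe sets 4.6% were higher and 3.21% lower at that p in WT cells, and 3.24% and 3.53% in CD169DTR/+ cells. Cdk1, the kinase that drives mitosis, was at 11.90 and 11.98, 11.61 and 12.03, 12.12 and 12.20, and 12.29 and 12.47. All 4 CD169DTR/+ arrays were thus above all 4 WT arrays, with a log2 difference of 0.22 ± 0.17 (SE) without irradiation and 0.56 ± 0.17 after it (limma adjusted p 0.999 and 0.636). Plk1, the polo kinase that activates Cdk1 and matures centrosomes, was at 12.58 and 12.68, 11.92 and 13.20, 12.75 and 13.21, and 13.21 and 13.75. The WT 2 Gy replicates of Plk1 were 1.28 apart, on either side of their controls.

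Ccna2, which encodes cyclin A2, was at 11.36 and 11.55, 11.57 and 11.76, 11.56 and 11.66, and 11.95 and 11.83. Each irradiated pair was above the controls of its genotype, and the average difference was 0.245 (limma adjusted p 0.52). Cks2, a small subunit that docks Cdk1 to its substrates, was at 9.90 and 10.31, 10.39 and 10.79, 10.54 and 10.40, and 10.80 and 10.48. It separated the WT groups by 0.485 ± 0.21 (SE), while its CD169DTR/+ groups overlapped. The other 7 measured genes of this role, Ccnb2, Cdc25b, Cdc25c, Aurka, Melk, Nek2 and Cdkn3, differed by -0.31 to 0.65 between irradiated and control WT cells and by -0.225 to 0.545 in CD169DTR/+ cells.

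The spindle checkpoint delays anaphase until each kinetochore is attached, and 9 genes of the checkpoint and of anaphase were measured. In WT 2 Gy replicate 1 this group stood lowest of all roles, with a median deviation of -0.66 and 0 of 9 genes above their own mean. Over all tested probe sets 18081 of 30294 were above theirs in that array. Bub3, the adaptor of the checkpoint kinases, was at 14.18 and 14.15, 13.23 and 13.78, 14.33 and 14.23, and 14.12 and 13.84. All irradiated arrays were below all controls, although the highest irradiated value (14.12) and the lowest control (14.15) almost touch. Its log2 difference was -0.66 ± 0.20 in WT and -0.30 ± 0.20 in CD169DTR/+ cells (SE; limma adjusted p 0.555 and 0.872).

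Bub1, a checkpoint kinase at the kinetochore, was at 8.95 and 8.93, 8.47 and 9.57, 9.92 and 9.72, and 10.08 and 9.88. Every CD169DTR/+ array was above every WT array, by 1.84-fold without irradiation (1.06 to 3.18) and 1.95-fold after it (1.13 to 3.36; limma adjusted p 0.999 and 0.645). Cdc20, the activator of the anaphase-promoting complex, was at 12.14 and 12.34, 11.62 and 12.33, 12.01 and 12.59, and 12.93 and 12.80. Its highest arrays were the CD169DTR/+ 2 Gy pair, which lay 0.89 above the WT 2 Gy mean (limma adjusted p 0.636). Mad2l1, the checkpoint protein that holds Cdc20, was at 13.20 and 13.63, 13.42 and 13.70, 13.64 and 13.64, and 13.95 and 14.23. The CD169DTR/+ 2 Gy arrays of Mad2l1 were again the highest of the 8. After 2 Gy all 9 genes of the group were higher in CD169DTR/+ than in WT cells (median 0.53), 8 of them without overlap. Over all probe sets 45.7% were higher and 16% were higher without overlap. The median deviation of the group was -0.66 and 0.036 in the WT 2 Gy arrays, and 0.335 and 0.446 in the CD169DTR/+ 2 Gy arrays. The other 5 genes, Bub1b, Ttk, Ube2c, Espl1 and Pttg1, differed by -0.395 to 0.69 at 2 Gy in WT cells and by 0.125 to 0.57 in CD169DTR/+ cells.

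Chromosomal passenger and kinetochore genes, 11 in number, were split. Cenpe was at 8.93 and 8.54, 9.71 and 9.95, 8.50 and 8.89, and 9.08 and 8.57. The WT 2 Gy arrays alone were high: the difference at 2 Gy was 1.095 ± 0.24 (SE) in WT cells and 0.13 ± 0.24 in CD169DTR/+ cells, and the difference between these was -0.965 (limma adjusted p 0.43, 0.964 and 0.928). Incenp, the scaffold that activates Aurora B, was at 9.20 and 9.39, 9.38 and 9.86, 9.16 and 9.26, and 9.83 and 9.84. In CD169DTR/+ cells its irradiated arrays were 1.54-fold above the controls (1.15 to 2.07; limma adjusted p 0.622).

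Aurkb, the Aurora B kinase that corrects faulty attachments, was at 9.41 and 10.07, 9.44 and 9.89, 10.14 and 9.90, and 10.34 and 10.16. Birc5, which encodes survivin, the subunit that brings Aurora B to centromeres, was at 7.22 and 7.48, 7.20 and 7.90, 7.74 and 7.82, and 8.08 and 7.90. Both genes overlapped between irradiated and control WT arrays and were higher in both irradiated CD169DTR/+ arrays than in their controls, by 0.23 and 0.21. Spc24, a subunit of the Ndc80 complex that grips microtubules, was 0.715 higher at 2 Gy in CD169DTR/+ cells and differed by -0.04 in WT cells. The other 6 genes of the group, Cdca8, Cenpa, Cenpf, Ndc80, Nuf2 and Spc25, differed by -0.505 to 0.63 in WT cells and by -0.035 to 0.55 in CD169DTR/+ cells.

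Kinesins and spindle proteins slide and bundle microtubules. Their median at 2 Gy in WT cells was the highest of the 7 roles (0.385, 8 of 11 higher). In CD169DTR/+ cells 11 of 11 were higher (median 0.435). Over all probe sets 64.2% were higher in WT cells and 56.6% in CD169DTR/+ cells. Dlgap5, also called HURP, which stabilises the fibres at kinetochores, was at 8.23 and 8.13, 8.54 and 8.97, 8.24 and 8.29, and 9.10 and 8.89. All 4 irradiated arrays were above all 4 controls in this gene. Its average difference was 0.65 ± 0.12 (SE), 1.57-fold (1.29 to 1.92), at a limma adjusted p of 0.291. Ckap2 was at 9.27 and 9.14, 10.14 and 9.90, 9.10 and 9.02, and 10.17 and 9.45. It too separated irradiated from control arrays, by 0.78 ± 0.17 on average (limma adjusted p 0.329), and CD169DTR/+ 2 Gy replicate 2 was the closest to the controls.

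Kif4, the chromokinesin that shapes chromosomes and the midzone, was at 8.50 and 8.17, 8.95 and 9.10, 9.40 and 8.80, and 9.78 and 9.29. In the control cells it was already 0.765 ± 0.26 (SE) higher in CD169DTR/+ than in WT cells (limma adjusted p 0.999). Kif22, which pushes chromosome arms towards the spindle equator, was at 10.90 and 10.97, 10.39 and 11.25, 10.45 and 11.12, and 11.70 and 11.68. Its replicates lay 0.86 apart in WT 2 Gy and 0.67 apart in CD169DTR/+ controls, and its CD169DTR/+ 2 Gy arrays were the highest. The other 7 genes of the role, Kif11, Kif2c, Kif15, Kif18a, Nusap1, Tpx2 and Hmmr, differed by -0.20 to 0.48 in WT cells and by 0.035 to 0.635 in CD169DTR/+ cells.

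The 7 cytokinesis genes build the midzone and the contractile ring. Of them 7 were higher at 2 Gy in CD169DTR/+ cells (median 0.545) and 5 in WT cells (median 0.06). Over all probe sets 56.6% and 64.2% were higher in the same order. Kif20b was at 9.40 and 9.73, 10.30 and 10.90, 10.04 and 9.85, and 10.58 and 10.59. All irradiated arrays were above all controls. The average difference of Kif20b was 0.84 ± 0.16 (SE), 1.79-fold (1.38 to 2.32), at a limma adjusted p of 0.292. Ect2 was at 8.77 and 8.98, 9.25 and 8.53, 9.19 and 8.83, and 10.03 and 10.76. The CD169DTR/+ 2 Gy arrays stood clear of the other 6, and the difference between the irradiation differences of the genotypes was 1.37 ± 0.46 (SE), which did not pass (limma adjusted p 0.913).

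Kif20a, the kinesin that carries Aurora B to the midzone, was at 8.42 and 8.58, 8.75 and 8.76, 8.86 and 8.83, and 9.16 and 9.62. Within each genotype its irradiated arrays were above the controls, and CD169DTR/+ arrays were above WT arrays at each dose. Racgap1, a subunit of the centralspindlin complex, was at 7.97 and 8.13, 7.63 and 7.68, 8.21 and 8.32, and 8.30 and 8.31. The WT 2 Gy arrays were the lowest and the CD169DTR/+ arrays the highest. After 2 Gy Racgap1 was 1.57-fold higher in CD169DTR/+ than in WT cells (1.29 to 1.91; limma adjusted p 0.551). Anln, which encodes the ring scaffold anillin, Kif23 and Prc1 differed by -0.035 to 0.115 in WT cells and by 0.045 to 0.58 in CD169DTR/+ cells.

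Condensin genes, whose complexes compact chromosomes, numbered 5. Ncaph was at 10.18 and 10.46, 10.27 and 11.03, 10 and 10.75, and 11.40 and 11.41. The CD169DTR/+ 2 Gy arrays of Ncaph were the highest and close together, and the other groups spread over 0.28 to 0.76. Smc4, a core subunit, was at 13.56 and 13.47, 13.75 and 14.13, 13.65 and 13.42, and 13.89 and 13.60. It separated the WT groups, by 0.425 ± 0.18 (SE), and not the CD169DTR/+ groups. Ncapd2 was at 10.21 and 10.42, 10.14 and 10.30, 10.46 and 10.84, and 10.77 and 10.59. Its CD169DTR/+ arrays were above its WT arrays with and without irradiation. Ncapg and Smc2 differed by 0.04 and 0.36 at 2 Gy in WT cells and by 0.62 and -0.01 in CD169DTR/+ cells.

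**Figure D4:**
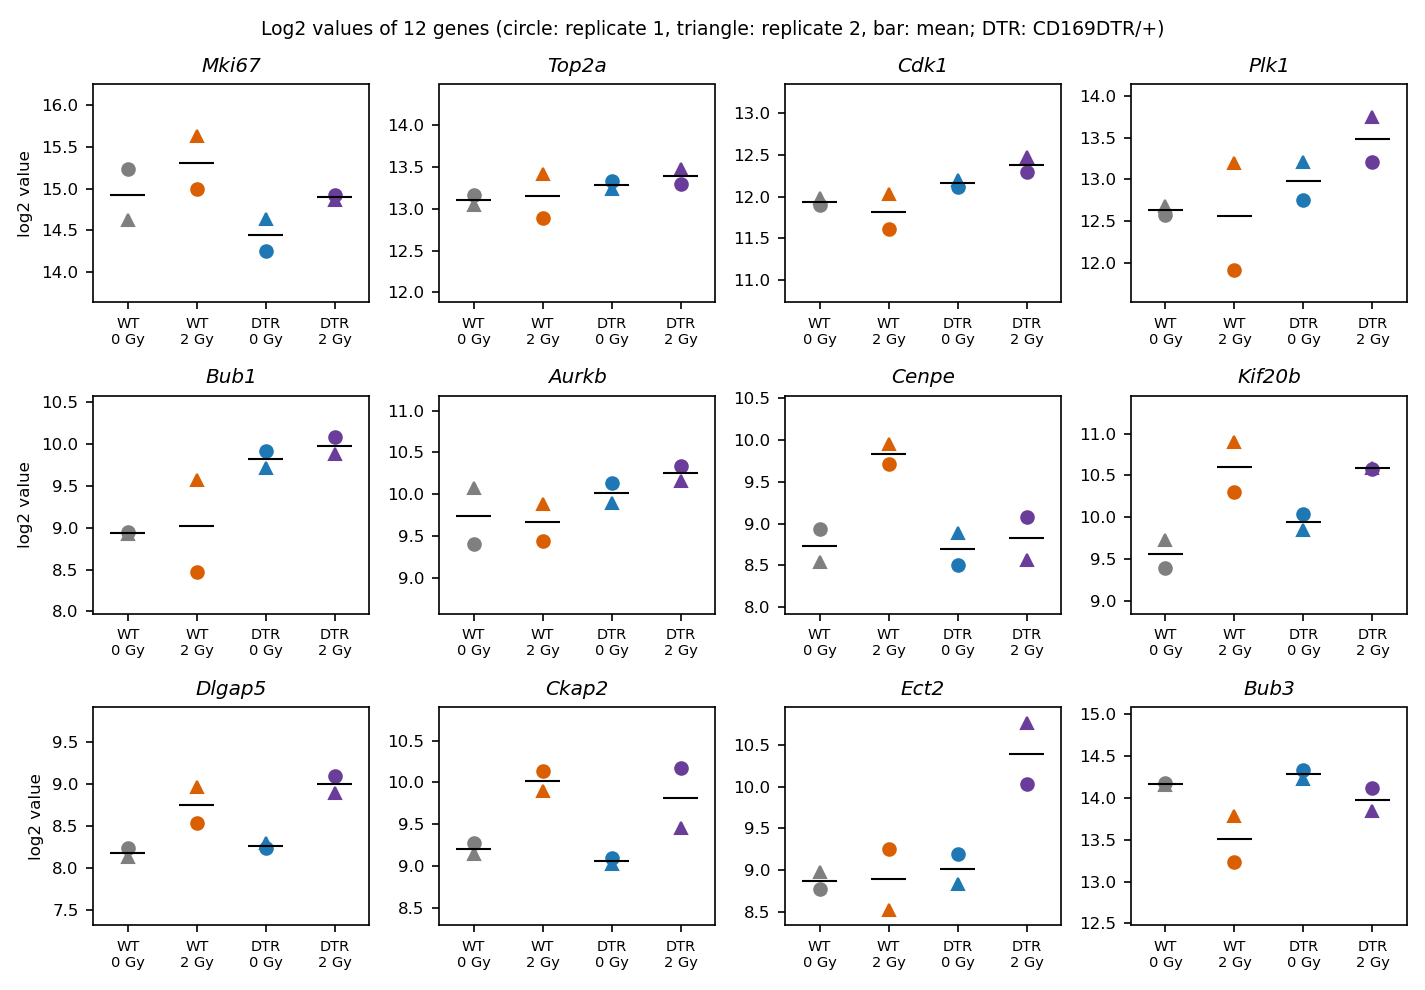
Log2 values (vertical axes) of 12 mitotic genes in each of the 8 arrays, a panel per gene with its own range, with a circle for replicate 1, a triangle for replicate 2 and a bar at the mean of each group (0 Gy marks non-irradiated arrays). Dlgap5, Kif20b and Ckap2 have all irradiated points above all controls, Bub3 has them below, and the WT 2 Gy points of Plk1 lie 1.28 apart.

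Toxin-treated CD169DTR/+ and WT cells were also compared at each dose, which asks what the loss of CD169+ macrophages went with. Without irradiation 47 of the 56 genes were higher in CD169DTR/+ cells and 9 lower, with a median of 0.18, where 57% of all probe sets were higher with a median of 0.03. With limma 0 passed an adjusted p of 0.05 (0% of all probe sets), and the smallest adjusted p was 0.999. At an unadjusted p under 0.05, 2 genes were higher (Bub1 and Kif4) and 0 lower, where 2.49% and 1.89% of all probe sets were. The groups did not overlap for 23 higher genes and 2 lower genes (Ckap2 and Pttg1), against 19.1% and 11.9%. The median was 0.075 without WT non-irradiated replicate 1 and 0.11 without CD169DTR/+ non-irradiated replicate 2.

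After 2 Gy 46 of the 56 genes were higher in CD169DTR/+ than in WT cells and 10 lower, with a median of 0.37, where 45.7% of all probe sets were higher with a median of -0.02. Ect2 at 2.84-fold (1.66 to 4.84), Bub1 at 1.95-fold and Cdc20 at 1.85-fold (1.16 to 2.95) were among the higher genes, and Cenpe was lower by a log2 difference of -1.005. With limma 0 passed an adjusted p of 0.05 (0% of all probe sets), and the smallest adjusted p was 0.551. At an unadjusted p under 0.05, 14 were higher and 1 lower, where 3.86% and 3.71% of all probe sets were. The groups did not overlap for 26 higher genes and 2 lower genes (Cenpe and Mki67), against 16% and 18.9%. The size of the median rests on the WT 2 Gy replicates: it was 0.10 with 36 genes above 0 without replicate 1, and 0.595 with 50 without replicate 2.

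The irradiation difference in CD169DTR/+ cells minus that in WT cells was above 0 for 40 of the 56 genes, below 0 for 15 and exactly 0 for Kif23, with a median of 0.20, where 41.8% of all probe sets were above 0 with a median of -0.05. With limma 0 genes passed an adjusted p of 0.05 (0% of all probe sets), and the smallest adjusted p was 0.913. At an unadjusted p under 0.05, 2 were higher (Ect2 and Racgap1) and 1 lower (Cenpe), where 2.4% and 2.78% of all probe sets were. The median was -0.015 when WT 2 Gy replicate 1 was left out, 0.395 when replicate 2 was, and 0.11 when WT non-irradiated replicate 2 was. Without the 2 irradiated arrays that stood apart it was 0.03. The comparisons share arrays, so the values of a gene in them are not independent of each other.

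**Figure D5:**
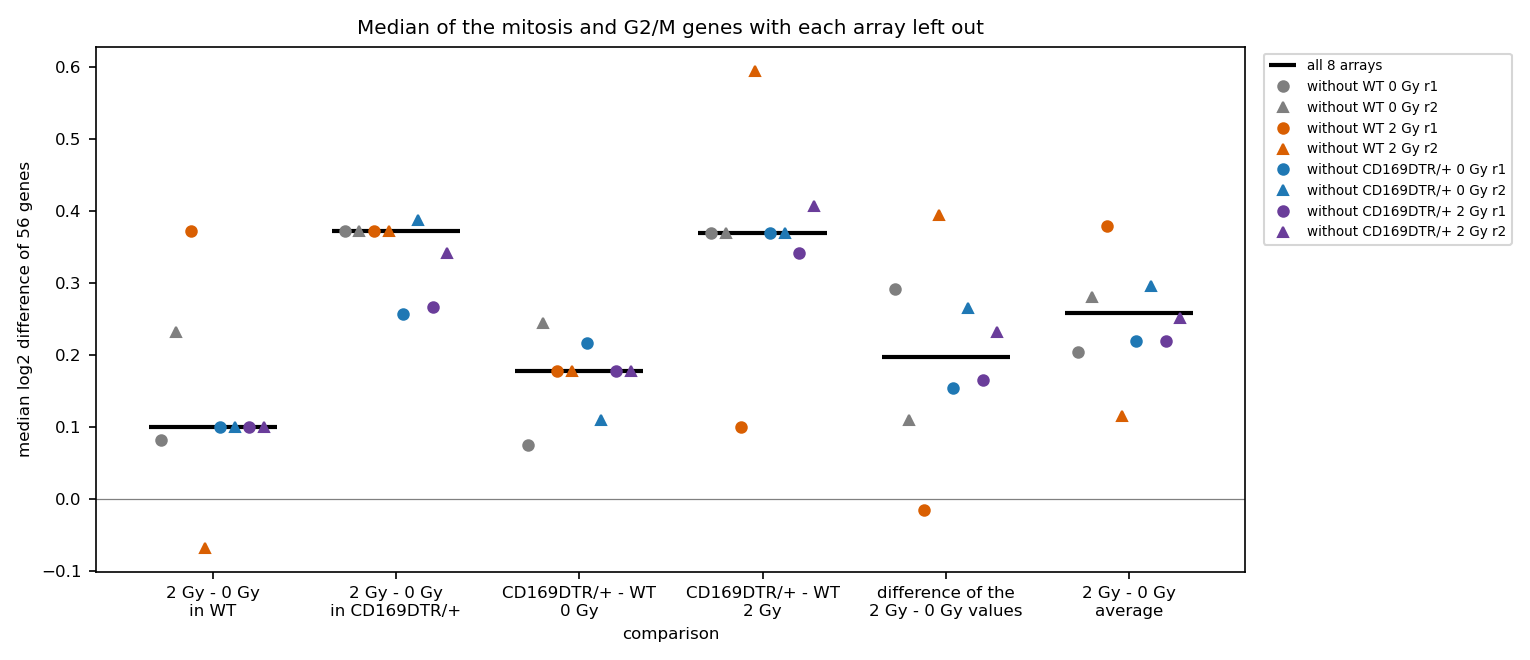
Median log2 difference of the 56 mitotic genes (vertical axis) in each of the 6 comparisons (horizontal axis), with all 8 arrays (bar) and with each array left out in turn (points). In WT cells the median moves from 0.10 to 0.37 without WT 2 Gy r1 and to -0.07 without WT 2 Gy r2, and in CD169DTR/+ cells it stays between 0.26 and 0.39.

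Other genes of the programme were read from lists drawn up for this comparison. Of 51 measured mitotic genes outside the list, 34 were higher at 2 Gy in WT cells (median 0.13) and 38 in CD169DTR/+ cells (median 0.205), and after 2 Gy 44 were higher in CD169DTR/+ than in WT cells (median 0.365); 0 passed an adjusted p of 0.05 with limma in these comparisons, and 4, 8 and 14 were higher at an unadjusted p under 0.05. Over all probe sets, in the same order of comparisons, 64.2%, 56.6% and 45.7% were higher, and 4.6%, 3.24% and 3.86% were so at an unadjusted p under 0.05. Of 15 measured regulators 6 were higher at 2 Gy in WT cells (median -0.12) and 10 in CD169DTR/+ cells (median 0.07), and after 2 Gy 14 were higher in CD169DTR/+ than in WT cells (median 0.405). Of these too 0 passed with limma, and 0, 1 and 4 were higher at an unadjusted p under 0.05. Foxm1 was not analysed here.

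Mybl2, which encodes B-MYB, was at 8.05 and 8.09, 7.47 and 8.74, 7.96 and 8.58, and 8.96 and 9.09. As in Plk1, the WT 2 Gy replicates of Mybl2 lay on either side of their controls, 1.27 apart, and the CD169DTR/+ 2 Gy arrays were the highest. E2f7, a repressive E2F and a known p53 target, was at 8.11 and 8.30, 8.45 and 8.65, 8.22 and 8.0, and 9.38 and 9.52. The CD169DTR/+ 2 Gy arrays stood clear of the rest, 2.53-fold above their controls (1.98 to 3.23; limma adjusted p 0.244), and in WT cells the difference was 0.345 ± 0.15 (SE). E2f8, its close relative, was at 10.08 and 10.29, 10.36 and 11.02, 10.47 and 10.60, and 11.16 and 10.75. Each irradiated pair of E2f8 was above the controls of its genotype.

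Of 15 measured genes that restrain mitotic entry, 8 were higher and 7 lower at 2 Gy in WT cells (median 0.04). In CD169DTR/+ cells 10 were higher and 5 lower (median 0.125). After 2 Gy 6 were higher and 8 lower in CD169DTR/+ than in WT cells (median -0.01). Over all probe sets 64.2%, 56.6% and 45.7% were higher in the same order. Of the 15, Cdkn1a alone passed an adjusted p of 0.05 with limma. It was at 7.86 and 8.39, 13.06 and 13.41, 9.79 and 9.34, and 13.24 and 13.23, so all irradiated arrays were far above all controls. Cdkn1a rose 34.5-fold in WT cells (23.3 to 51.3; limma adjusted p 0.0073), and the average over both genotypes passed as well (4.39, adjusted p 0.00205). Over the alternatives the adjusted p ran from 0.00274 to 0.125 in WT cells: without WT non-irradiated replicate 1 it was 0.075, without the 2 irradiated arrays that stood apart 0.0981, and with only the WT arrays in the fit 0.125. For the average it ran from 0.000674 to 0.0689, the latter without the 2 irradiated arrays that stood apart, where the call was lost. In CD169DTR/+ cells the difference was 3.67 at an adjusted p of 0.0622, over the threshold. Over the alternatives that p ran from 0.024 to 0.413, and it was under 0.05 in 4 of them: with all probe sets (0.0426), with cyclic loess (0.0458), with dim probe sets left out (0.0418) and with an intensity trend in the variance (0.024).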

How the data were processed

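Total RNA of sorted LT-HSC was hybridised to 8 Affymetrix arrays as biotinylated cDNA, per the labels' protocols. The authors deposited 1 log2 value per probe set and array, normalised with RMA per the submitters' processing notes; the base is not stated in the table and was taken as log2, and values carry 2 decimals. Of 40161 probe sets, 30294 carried 1 gene symbol in the platform annotation and were tested; 2145 carried several and 7722 none. Through Entrez IDs 22546 matched the RefSeq table of GRCm38.p6, which updated 827 symbols; no coordinates of that table were used other than those of the promoter windows.

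All 8 arrays entered 1 limma 3.58.1 fit (lmFit and eBayes; R 4.3.3) with a term per group, which left 4 residual degrees of freedom beside 2.59 prior ones, and contrasts were tested two-sided with Benjamini-Hochberg adjustment over the 30294 probe sets in each of 6 comparisons. Intervals in parentheses after a fold are 95% confidence intervals of that fit, whose precision 2 arrays in a group limit. The fit was tested on simulated data with known differences. The replicates came from distinct experiments per the series' design text; beyond that, p-values measure the spread between these arrays.

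The genes and all lists were chosen with earlier results of these data known, so no p is given for a list. Values in every array are given for Mki67, Top2a, Cdk1, Plk1, Aurkb, Bub1 and Birc5, for the gene of each role with the smallest p in each comparison, and for Mybl2, E2f7, E2f8 and Cdkn1a. Spc24 and Pttg1, and the genes named in counts, were singled out after their values were seen. Alternatives were the variance model, a filter at percentile 40, all probe sets, cyclic loess, median centring, array weights, a replicate block, the compared groups alone, the mean over probe sets, and each array left out; leaving out the 2 irradiated arrays that stood apart was chosen after seeing the data. CHR and CCAAT motifs were searched in 48 of the 57 genes, those with a RefSeq promoter window. Of the other marker lists, the median deviation per array ran from -0.31 to 0.68 (erythroid), -0.20 to 0.60 (mast cell, basophil and eosinophil), -0.22 to 0.27 (monocyte and macrophage), -0.09 to 0.05 (lymphoid) and -0.08 to 0.16 (genes the gate excludes).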

Additional observations from a re-analysis of the deposited data

How the results depend on the processing

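No mitotic gene passed an adjusted p of 0.05 in any of the 6 comparisons under any alternative run. Whether the replicate numbers mark the same experiment across groups is not given. Deviations of same-numbered arrays correlated at -0.09 to 0.16 over the 6 pairs of groups, which cannot settle it with so few arrays. With the replicate block the number of mitotic genes called stayed at 0. The block is balanced over the groups, so it could not change a median, which in WT cells was 0.10 as before. The median over the 56 genes moved by more than the spread between replicates (pooled SD 0.162) only when WT 2 Gy arrays were left out. Leave-one-out ranges were -0.0675 to 0.3725 for 2 Gy in WT cells, 0.10 to 0.595 for CD169DTR/+ against WT cells after 2 Gy, and -0.015 to 0.395 for the difference between the irradiation differences. Without the 2 irradiated arrays that stood apart, these medians were 0.3725, 0.17 and 0.03. The median for 2 Gy in WT cells was -0.015 under median centring.

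The 7 genes followed singly under the alternatives (Mki67, Top2a, Cdk1, Plk1, Aurkb, Bub1 and Birc5) turned sign in 42 cases over the 6 comparisons, none of them past the threshold. Under median centring the difference was -0.075 for Top2a and -0.035 for Bub1 at 2 Gy in WT cells, and -0.0175 for Cdk1 on average. Without the 2 irradiated arrays that stood apart, it was 0.09 for Cdk1, 0.57 for Plk1 and 0.15 for Aurkb at 2 Gy in WT cells, -0.11 for Top2a between genotypes after 2 Gy, and -0.22 for Mki67, -0.28 for Top2a, -0.34 for Plk1, -0.37 for Bub1 and -0.25 for Birc5 as the difference between irradiation differences. Leave-one-out ranges that crossed 0 at 2 Gy in WT cells were -0.22 to 0.30 (Top2a), -0.33 to 0.09 (Cdk1), -0.71 to 0.57 (Plk1), -0.405 to 0.255 (Aurkb), -0.47 to 0.63 (Bub1) and -0.15 to 0.55 (Birc5). Between genotypes they were -0.05 to 0.61 (Aurkb, non-irradiated) and -0.02 to 0.50 (Top2a, 2 Gy). For the difference between irradiation differences they were -0.255 to 0.385 (Mki67), -0.19 to 0.33 (Top2a), -0.07 to 1.21 (Plk1), -0.025 to 0.635 (Aurkb), -0.47 to 0.63 (Bub1) and -0.34 to 0.36 (Birc5). For the average difference they were -0.055 to 0.205 (Top2a), -0.055 to 0.155 (Cdk1), -0.105 to 0.535 (Plk1), -0.0875 to 0.2425 (Aurkb) and -0.155 to 0.395 (Bub1). The cause of these turns was not tested. With 2 arrays in a group, the width of the intervals limits what can be told.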

Other observations

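DNA replication genes, which act in S phase, ahead of mitosis, were read beside the mitotic genes. Of 35 measured genes, 30 were higher at 2 Gy in CD169DTR/+ cells (median 0.195) and 19 in WT cells (median 0.015). After 2 Gy 32 of the 35 were higher in CD169DTR/+ than in WT cells (median 0.45), and without irradiation 29 were (median 0.175). With limma 0 passed an adjusted p of 0.05 in these comparisons, and 2, 1, 10 and 2 were higher at an unadjusted p under 0.05. Over all probe sets, in the same order of comparisons, 56.6%, 64.2%, 45.7% and 57% were higher, and 3.24%, 4.6%, 3.86% and 2.49% were so at an unadjusted p under 0.05. The median deviation over the list was -0.28 and -0.05 in the WT non-irradiated arrays, -0.28 and 0.03 in the WT 2 Gy arrays, -0.05 and 0.18 in the CD169DTR/+ non-irradiated arrays, and 0.16 and 0.35 in the CD169DTR/+ 2 Gy arrays. WT 2 Gy replicate 1 was again low, as for the mitotic genes. Pcna, the sliding clamp of DNA polymerases, was level over the arrays at 15.63 to 15.81.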
